A study of Mus musculus with 8 samples.

Results

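The Zscan4 genes are a cluster of near-identical zinc finger and SCAN domain genes on mouse chromosome 7. Their transcripts were followed in single-cell RNA-seq of mouse embryonic stem (mES) cells, left untreated or given CX-5461, an inhibitor of RNA polymerase I, the enzyme that makes ribosomal RNA. The members are the 7 genes Zscan4a, Zscan4b, Zscan4c, Zscan4d, Zscan4e, Zscan4f and Zscan4-ps3, found by symbol among the 54146 genes of the deposited tables. All 7 were present in both tables and had at least 20 UMIs over the libraries together. A further pair of annotated copies, Zscan4-ps1 and Zscan4-ps2, lies outside this choice and is given beside the members where it bears on them.

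In the mouse embryo, Zscan4 is transcribed in a short burst at the late 2-cell stage. In mES cultures it marks a small and transient fraction of cells that also express other 2-cell (2C) transcripts. Zscan4c, Zscan4d and Zscan4f code for full-length proteins, and Zscan4 is known for a role in telomere lengthening and genome stability of mES cells. Dux, a double homeobox factor, is a known activator of Zscan4 and of many other 2C genes.

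The 9 annotated copies lie within chr7:10794242-11614112 (GRCm38, GENCODE annotation), a stretch of 819871 bases. Going along the chromosome, Zscan4a is at 10794242 to 10799057, Zscan4b at 10900740 to 10905050 and Zscan4c at 11005745 to 11010547. Zscan4d follows at 11161374 to 11166159, Zscan4e at 11306378 to 11310682, Zscan4f at 11397915 to 11402318 and Zscan4-ps3 at 11609308 to 11614112. Zscan4a, b, d and e are on the minus strand, and Zscan4c, f and ps3 are on the plus strand. GENCODE lists Zscan4a as an unprocessed pseudogene and the other members as protein coding, whereas RefSeq lists Zscan4a as a transcribed pseudogene and Zscan4e and Zscan4-ps3 as pseudogenes.

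The longest annotated transcripts of the other members were 96.7% (Zscan4b) to 98.8% (Zscan4f) identical to that of Zscan4-ps3 over their aligned bases. They differed in where the annotation ends. The transcripts of Zscan4a, c, d and ps3 measured 2279, 2276, 2272 and 2277 bases and reached the same 3′ end. Those of Zscan4b, e and f measured 1779, 1745 and 1829 bases, and stopped 496, 505 and 424 bases before the position that matches the end of Zscan4-ps3. This matters for 3′ end libraries, in which reads come from near the end of the transcript. Of the 201 stretches of 100 bases in the last 300 bases of each transcript, 183 of Zscan4a, 183 of Zscan4d, 164 of Zscan4c and 93 of Zscan4-ps3 occurred in no transcript of another copy. In Zscan4b, e and f the number was 0. Counts of single copies therefore rest on how reads of near-identical copies were assigned, and the summed level of the family is the firmer value.

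RefSeq promoter sequences (GRCm38.p6) were at hand for 4 of the 7 members. They are shown because they differ by few bases. Zscan4-ps3 was not among the 4, and a link between promoter sequence and the level or joint detection of the copies was not tested. Each run below has 195 bases, written 5′ to 3′ on the gene's strand, and ends 3 bases after a TATAAAA sequence. Capitals mark TATAAAA and, where present, TGATTCAA, the opening letters of the sequence that Dux is known to bind. The runs lie at chr7:10905072-10905266 (minus strand) for Zscan4b, chr7:11005506-11005700 (plus) for Zscan4c, chr7:11166204-11166398 (minus) for Zscan4d and chr7:11397699-11397893 (plus) for Zscan4f.
Zscan4b: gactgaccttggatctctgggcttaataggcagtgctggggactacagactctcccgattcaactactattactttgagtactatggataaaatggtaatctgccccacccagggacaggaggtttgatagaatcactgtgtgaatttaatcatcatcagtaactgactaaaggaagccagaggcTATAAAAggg
Zscan4c: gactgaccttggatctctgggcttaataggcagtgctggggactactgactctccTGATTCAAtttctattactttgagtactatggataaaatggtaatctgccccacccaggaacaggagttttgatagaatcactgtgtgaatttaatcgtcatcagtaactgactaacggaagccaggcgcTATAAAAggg
Zscan4d: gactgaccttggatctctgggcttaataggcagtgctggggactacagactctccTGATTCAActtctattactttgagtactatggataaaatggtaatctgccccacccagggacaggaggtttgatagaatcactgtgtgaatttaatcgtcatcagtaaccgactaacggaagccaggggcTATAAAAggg
Zscan4f: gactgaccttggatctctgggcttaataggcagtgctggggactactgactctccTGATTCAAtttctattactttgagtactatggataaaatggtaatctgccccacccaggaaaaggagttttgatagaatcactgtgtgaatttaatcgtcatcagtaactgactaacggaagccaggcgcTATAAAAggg
Zscan4c and Zscan4f differed at 1 of the 195 positions, C117A (Zscan4c base first, position counted from the 5′ end of the run). Zscan4d differed from Zscan4c at 6 positions and Zscan4b from Zscan4f at 11, the largest number among the 6 pairs. TGATTCAA stood at position 56 in Zscan4c, d and f. Zscan4b lacked it through C56T (Zscan4b base first, Zscan4d base last). On either strand, TGATTCAA occurred in 0.581% and TATAAAA in 5.48% of 32851 RefSeq promoters of 300 bases. These are matches of letters, the rest of the sequence that Dux binds was not compared, and no binding was measured here. The TATAAAA began 31 bases before the RefSeq start in Zscan4b and Zscan4f, 54 bases before it in Zscan4c and 65 bases before it in Zscan4d.

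The cells were E14 wild-type mES cells, described in the labels as derived from the inner cell mass and grown on gelatin with feeder fibroblasts in medium with LIF and 2i. The labels list 4 samples for each condition, but the cells of a condition are pooled in 1 table with no sample of origin, so each condition is 1 library and no test between conditions can be made. No p-value is given, and all intervals are exact 95% intervals that cover counting error only, not the spread between cells or cultures. After removal of barcodes with fewer than 500 UMIs (unique molecular identifiers, one per captured RNA molecule) or more than 0.2 of them mitochondrial, 3767 control cells with 49483868 UMIs and 4697 CX-5461 cells with 68745851 UMIs were kept. Their median depth was 12987 and 14213 UMIs per cell, and the 25th percentile was 3638.5 against 11341, so that the control library held more shallow cells. All 9 ES cell markers were detected in both libraries (summed level 6835 and 7438 CPM, UMIs per 1e6 UMIs of the library), and so were all 12 markers of feeder fibroblasts (2042 and 1502 CPM).

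The Zscan4 family was higher in the CX-5461 library. The 7 copies summed to 583 UMIs in 42 control cells, a level of 11.8 CPM (10.8 to 12.8), and to 2908 UMIs in 196 CX-5461 cells, 42.3 CPM (40.8 to 43.9). The ratio of the levels was 3.59 (3.28 to 3.93), or 1.84 on the log2 scale. The median log2 ratio was 0.40 over the 18723 genes whose UMIs in the libraries together came to at least 20, and with scaling factors that centre the genes (edgeR TMM, DESeq2 median-of-ratios) the family stood at 1.5 and 1.47. The share of cells with at least 1 Zscan4 UMI was 1.11% (0.805 to 1.5) in the control and 4.17% (3.62 to 4.78) in the CX-5461 library, 3.74 times as high. A positive cell had a median of 1 UMI in the control and 2 in the CX-5461 library, and a mean of 13.9 and 14.8. Without the 3 cells with the most Zscan4 UMIs in each library, the mean was 3.74 in the control and 9.33 in the CX-5461 library. The cells left out held 75% of the control and 38.1% of the CX-5461 family UMIs. They were picked by the same count that is averaged, and were 3 of 42 control against 3 of 196 CX-5461 positive cells. The control mean thus falls further by construction, and these means do not compare the RNA per positive cell. Thinning each cell to 3100 UMIs (824 control and 21 CX-5461 cells were shallower and dropped out) gave shares of 0.442% (0.235 to 0.754) and 2.29% (1.88 to 2.76).

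How much higher the family stood depended on few control cells. Without the cell with the most Zscan4 UMIs in each library, the log2 ratio was 2.11, without the top 3 of each it was 3.15, and without the top 10 it was 4.30. The top 3 held 75% of the control and 38.1% of the CX-5461 family UMIs, and the top 10 held 92.8% and 60.5%. Leaving them out thus takes more from the control, and the ratio rises by construction. When each cell's CPM was averaged instead, giving shallow cells equal weight, the log2 ratio was 0.90, and after thinning it was 0.98. The top control cell held 175 Zscan4 UMIs among only 3105 in all, 5.64% of its transcripts (4.85 to 6.51). Thinning to 3100 UMIs hardly touched this cell, whereas all thinned control cells together held 257 Zscan4 UMIs. The direction was the same under each of these settings, but the size ranged from 0.90 to 4.30 in log2. The upper values come from leaving out cells by the same count that is compared, and do not measure robustness. Fewer cells of a kind and less RNA per cell cannot be told apart in a summed level, and here the share of positive cells and the UMIs per positive cell are given for that reason.

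**Figure D1:**
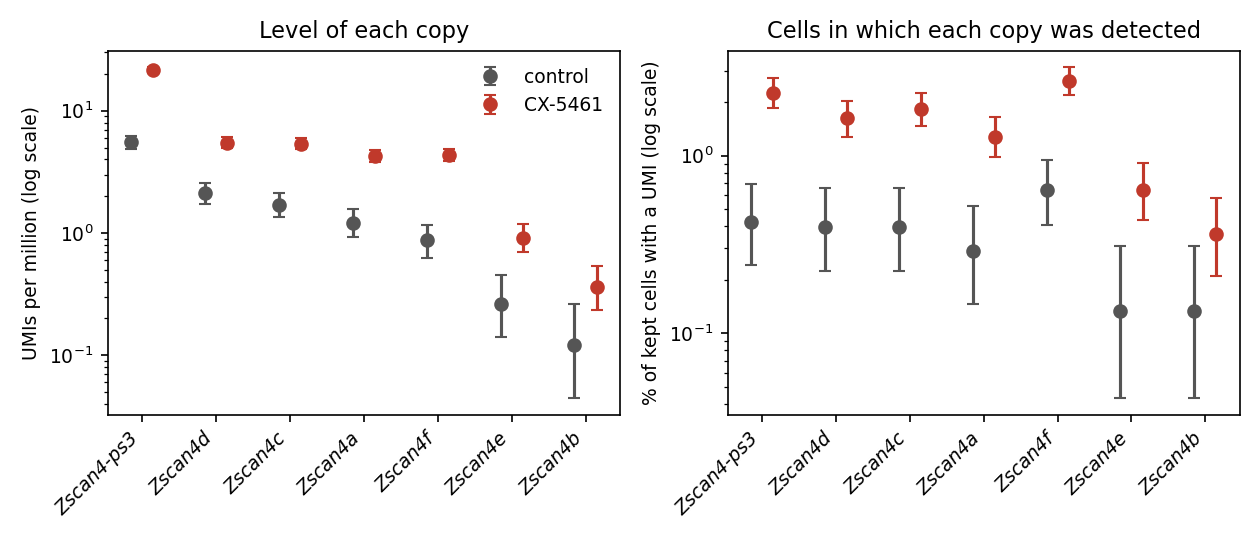
Level of each Zscan4 copy in CPM (left) and percentage of kept cells with at least 1 UMI of it (right), both on log axes, in the control (grey, 3767 cells) and CX-5461 (red, 4697 cells) libraries, with exact 95% intervals for counting error. Every copy lies higher in the CX-5461 library, Zscan4-ps3 has the highest level in both, and Zscan4f is found in the most cells.

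All 7 copies had a ratio of at least 2, from 2.61 for Zscan4d to 4.99 for Zscan4f. Of the 18723 genes tested, 25.0% had such a ratio. With TMM and median-of-ratios factors it was 17.8% and 17.4% of the genes. The lowest copy, Zscan4d, then stood at log2 1.04 and 1.01, barely above 2-fold. After thinning to 3100 UMIs per cell, Zscan4a, d, e and ps3 fell under this bound, with log2 ratios of 0.76, 0.76, 0.75 and 0.85. Zscan4b, c and f stayed above it at 1.92, 1.30 and 2.01. Thinning hardly touched the top control cell, which had 175 Zscan4 UMIs among 3105 in all, whereas the whole thinned control held 257. The thinned ratios of single copies therefore rest largely on this cell. Zscan4-ps3 carried the most UMIs, 273 in the control and 1481 in the CX-5461 library, which is 46.8% (42.7 to 51.0) and 50.9% (49.1 to 52.8) of the family. Its level was 5.52 CPM in the control and 21.5 CPM after CX-5461, a ratio of 3.90 (3.43 to 4.46). UMIs from 3′ libraries count molecules, so that levels of different copies need no correction for length. Setting the copies side by side still rests on how reads of near-identical copies were assigned. This holds above all for Zscan4b, e and f, with their early annotated ends.

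Zscan4d, known as the main copy of the 2-cell embryo, and Zscan4c, known as the main coding copy of mES cells, came next. Zscan4d had 104 and 377 UMIs (2.1 and 5.48 CPM), a ratio of 2.61 (2.09 to 3.27). Zscan4c had 84 and 370 UMIs (1.70 and 5.38 CPM), a ratio of 3.17 (2.50 to 4.07). Their levels did not differ beyond counting error within either library. Zscan4a, the annotated pseudogene, had 60 and 294 UMIs (1.21 and 4.28 CPM), with a ratio of 3.53 (2.66 to 4.74).

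Zscan4f, e and b, whose annotated transcripts end early, had the lowest levels in the control library. Zscan4f had 43 and 298 UMIs (0.869 and 4.33 CPM), the highest ratio among the members at 4.99 (3.61 to 7.04), and its level after CX-5461 did not differ beyond counting error from that of Zscan4a. Zscan4e had 13 and 63 UMIs, a ratio of 3.49 (1.90 to 6.91). Zscan4b had only 6 and 25 UMIs, a ratio of 3.00 (1.20 to 8.94). The interval of Zscan4d lay below those of Zscan4-ps3 and Zscan4f, and the intervals of all other pairs of members overlapped. Outside the members, Zscan4-ps2 had 148 and 686 UMIs (ratio 3.34, 2.79 to 4.01) and Zscan4-ps1 had 18 and 209 (ratio 8.36, 5.16 to 14.4). With these copies added, the family level was 15.1 and 55.3 CPM and the ratio 3.65.

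Apart from Zscan4d, the shares of the copies in the family had overlapping intervals in the libraries. In the control and CX-5461 libraries, Zscan4a made up 10.3% and 10.1%, Zscan4c 14.4% and 12.7%, Zscan4e 2.23% and 2.17%, and Zscan4b 1.03% and 0.860% of the UMIs. Zscan4d made up 17.8% (14.8 to 21.2) and 13.0% (11.8 to 14.2), and Zscan4f 7.38% (5.39 to 9.81) and 10.2% (9.17 to 11.4). Few counts were marked by the authors as ambiguous between genes. Over all barcodes they ranged from 0 (Zscan4a and Zscan4d) to 7 (Zscan4f) in the control, and from 0 (Zscan4b) to 15 (Zscan4f) in the CX-5461 library. The partner was a Zscan4 copy each time. Zscan4f was marked with Zscan4-ps1 and Zscan4-ps2 in both libraries.

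A handful of cells carried most of the transcripts. In the control library, the 13 cells with more than 1 Zscan4 UMI had 175, 141, 121, 26, 22, 15, 14, 13, 8, 6, 6, 5 and 2. The top cell held 30.0% (26.3 to 33.9) of all family UMIs and the top 3 held 75%. Another 29 control cells had exactly 1 UMI, and only 1 cell lay between 1 and 5 UMIs. In the CX-5461 library the highest cells had 455, 333, 320, 137, 122 and 100 UMIs, and each range below them held cells. There 84 cells had 1 UMI, 40 had 2 to 4, 27 had 5 to 9, 18 had 10 to 19, 15 had 20 to 49, 6 had 50 to 99 and 6 had 100 or more. The top CX-5461 cell held 15.6% (14.3 to 17.0) and the top 3 held 38.1%. It took 2 control cells and 6 CX-5461 cells to reach 50 percent of the family UMIs, and 8 and 54 cells to reach 90 percent.

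Cells of low and middling Zscan4 count were more frequent in the CX-5461 library. Cells with at least 2 Zscan4 UMIs made up 0.345% (0.184 to 0.589) of the control and 2.38% (1.97 to 2.86) of the CX-5461 library. Cells with at least 10, a bound chosen after the values were seen, were 8 in the control, 0.212% (0.0917 to 0.418), and 45 in the CX-5461 library, 0.958% (0.700 to 1.28). Cells with 100 or more did not differ beyond counting error, with 3 and 6 cells, or 0.0796% (0.0164 to 0.233) and 0.128% (0.0469 to 0.278). In cells with at least 10 UMIs, Zscan4 made up 0.0994% to 5.64% of all transcripts in the control (median 0.489%) and 0.0341% to 3.66% after CX-5461 (median 0.202%). These cells had a median of 10141.5 and 12447 total UMIs, below the library medians of 12987 and 14213. Among the 8 control cells, 1 had only 1086 and the cell with the most Zscan4 UMIs only 3105.

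**Figure D2:**
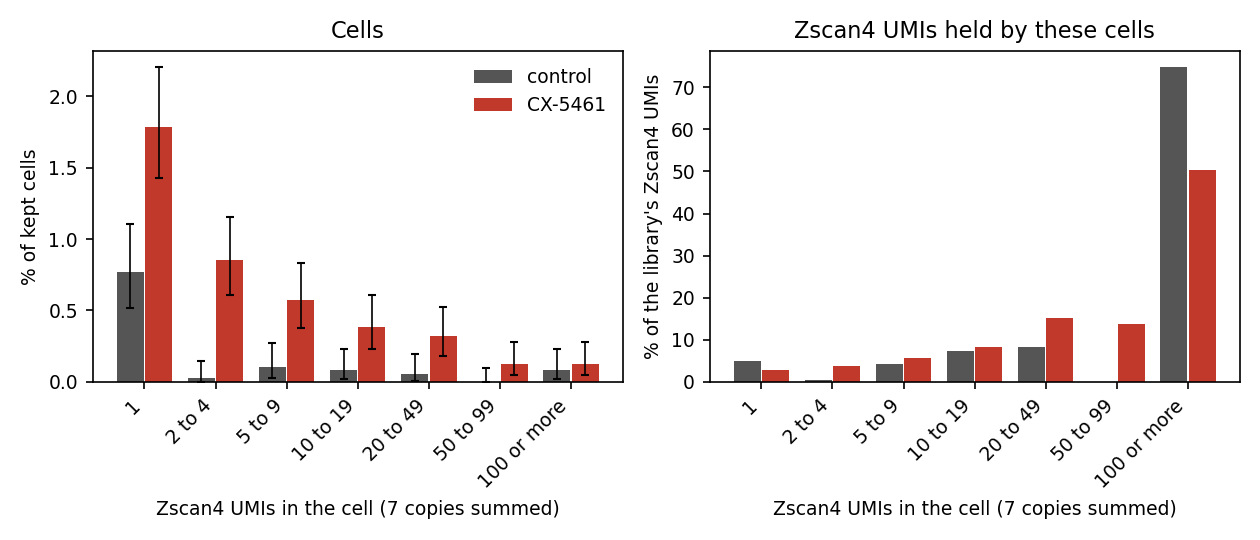
Percentage of kept cells (left, with exact 95% intervals) and of each library's Zscan4 UMIs (right) by the number of Zscan4 UMIs in the cell, for the control (grey) and CX-5461 (red) libraries. Cells with 1 UMI are the most frequent positive cells in both, whereas cells with 100 or more hold 75% of the control and 50.4% of the CX-5461 family UMIs; 1 control cell lies at 2 to 4 against 40 in the CX-5461 library.

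The copies were detected together. Of the positive cells, 12 of 42 in the control (28.6%, 15.7 to 44.6) and 99 of 196 in the CX-5461 library (50.5%, 43.3 to 57.7) had UMIs of 2 or more members. Most of the others had 1 UMI in all and could show only 1 copy. Among cells with at least 2 UMIs, 92.3% of 13 and 88.4% of 112 had 2 or more copies. All 7 members were found in 4 control and 12 CX-5461 cells, and these held 78.7% and 60.7% of the family UMIs. No control cell had exactly 2 copies, against 26 CX-5461 cells, which had a median of 3 family UMIs.

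The rare copies were never seen alone. Zscan4b was found in 5 control and 17 CX-5461 cells and Zscan4e in 5 and 30, and each of these cells held another member as well. In the control and CX-5461 libraries, Zscan4b made up 1.03% and 0.860% and Zscan4e 2.23% and 2.17% of the family UMIs. So few UMIs leave little room for a cell with Zscan4b or Zscan4e alone. Neither had a stretch of 100 bases of its own near its annotated end. Whether reads of other copies were assigned to them was not tested. Zscan4-ps3 accompanied Zscan4e in 5 of 5 control and 29 of 30 CX-5461 cells (96.7%, 82.8 to 99.9), and Zscan4b in 5 of 5 and 16 of 17 (94.1%, 71.3 to 99.9). Of the cells with Zscan4-ps3, 75% of 16 and 85.8% of 106 had another member. Of those with Zscan4f the figures were 45.8% of 24 and 62.9% of 124 (53.8 to 71.4), the lowest among the members in both libraries. Each of the cells with at least 10 UMIs held at least 4 copies in the control and at least 3 in the CX-5461 library. Within the 45 such CX-5461 cells, the share of Zscan4-ps3 ran from 20% to 69.2% around a median of 47.4%, and within the 8 control cells from 33.3% to 71.4% around 45.2%.

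**Figure D3:**
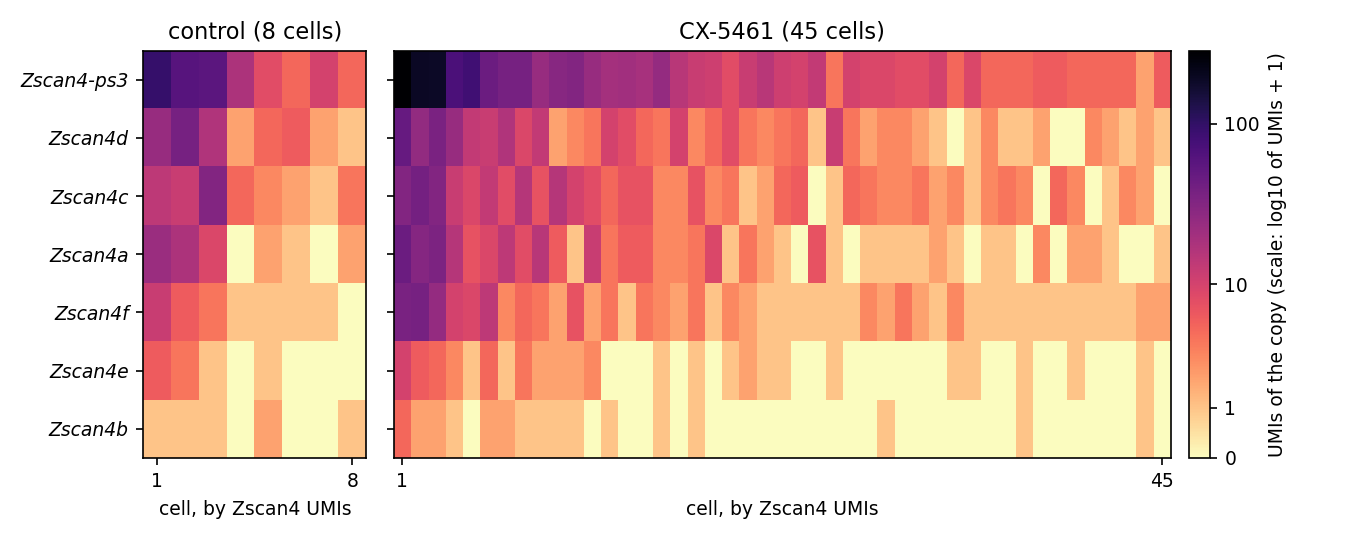
UMIs of each Zscan4 copy (rows; colour on a log scale of UMIs + 1) in each cell with at least 10 Zscan4 UMIs (columns, from the most to the fewest), 8 control and 45 CX-5461 cells. Zscan4-ps3 is present in every cell, Zscan4d, c, a and f in most, and Zscan4e and Zscan4b mainly in the cells with the most UMIs.

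Cells with a lone Zscan4 UMI had another make-up. Zscan4f supplied 13 of the 29 single UMIs in the control (44.8%, 26.4 to 64.3) and 46 of the 84 in the CX-5461 library (54.8%, 43.5 to 65.7). In cells with at least 10 UMIs it supplied 26 of 527 (4.93%, 3.25 to 7.15) and 216 of 2550 (8.47%, 7.42 to 9.62). Zscan4-ps3 went the other way, with 3 of 29 (10.3%, 2.19 to 27.4) and 8 of 84 (9.52%, 4.2 to 17.9) of the single UMIs, against 49.1% (44.8 to 53.5) and 53.2% (51.3 to 55.2) in cells with at least 10. The intervals of these shares did not overlap in either library for either copy. Zscan4f, with the fifth highest number of UMIs in the control, was found in the most cells, 24 control (0.637%, 0.409 to 0.946) and 124 CX-5461 cells (2.64%, 2.20 to 3.14).

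The cells in which Zscan4f stood alone carried few other signs of the 2C state. None of the 13 control cells (0% to 24.7%) and 7 of the 46 CX-5461 cells (15.2%, 6.34 to 28.9) had a UMI of 15 other 2C markers. Of the cells with 1 UMI of another member, 3 of 16 and 7 of 38 had one, which did not differ beyond counting error. Zscan4-ps1, whose ambiguous counts were all with Zscan4f, was present in 4 of the 13 and 10 of the 46 Zscan4f-only cells. It was in 0 of the 16 and 0 of the 38 cells with 1 UMI of another member. Zscan4-ps2 was in 1 of the 46 Zscan4f-only CX-5461 cells and in 9 of the 38 others, and in the control in 1 of 13 and 1 of 16.

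**Figure D4:**
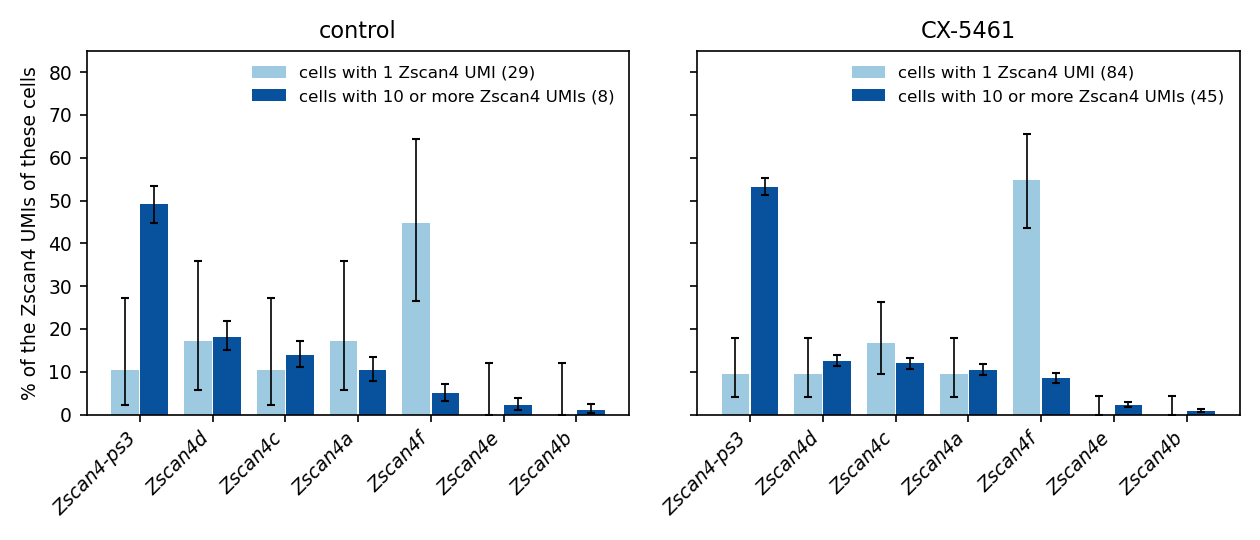
Share of each copy in the Zscan4 UMIs of cells with 1 Zscan4 UMI (light blue) and of cells with 10 or more (dark blue), with exact 95% intervals, for the control (29 and 8 cells) and the CX-5461 library (84 and 45 cells). Zscan4f leads among the single UMIs of both libraries and Zscan4-ps3 among the cells with 10 or more.

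To find where the positive cells lay, cells of both libraries were clustered together without any Zscan4 gene among the variable genes. A cluster of 12 control and 82 CX-5461 cells had 6 of the 16 other 2C markers among its 50 leading genes and was called 2C-like. It held 12 of the 42 positive control cells (28.6%, 15.7 to 44.6) and 70 of the 196 positive CX-5461 cells (35.7%, 29.0 to 42.9). Nearly all Zscan4 transcripts were there, 546 of 583 UMIs in the control (93.7%) and 2647 of 2908 in the CX-5461 library (91.0%). All 12 control cells of the cluster were positive (73.5% to 100%). Of the 82 CX-5461 cells, 70 were positive (85.4%, 75.8 to 92.2) and 12 had no member UMI, nor one of Zscan4-ps1 or Zscan4-ps2, although 8 of these had another 2C marker. With all listed 2C genes left out of the variable genes as well, the cluster held 24.5% of the positive CX-5461 cells.

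Outside it, positive cells were rare, and their share is set beside that of fibroblasts, which should lack the genes. The ES-like cells held 21 positives among 2363 in the control (0.889%, 0.551 to 1.36; median depth 15847 UMIs) and 124 among 4446 after CX-5461 (2.79%, 2.32 to 3.32; median 14120). Feeder fibroblast-like cells, which are deeper, held 3 of 216 (1.39%, 0.287 to 4.01; median 20618.5) and 2 of 162 (1.23%, 0.15 to 4.39; median 23608.5). The control ES-like share was not above the fibroblast share, and the CX-5461 ES-like share was above it, with overlapping intervals in both libraries. The summed level in control ES-like and fibroblast-like cells was 0.678 (0.450 to 0.979) and 0.659 CPM (0.136 to 1.93), and in the CX-5461 library it was 4.05 (3.57 to 4.57) and 0.764 CPM (0.158 to 2.23). No fibroblast-like cell had more than 2 Zscan4 UMIs, whereas 3 CX-5461 ES-like cells had 10 or more, up to 12, and the highest control ES-like cell had 8, from 4 copies, beside 5 UMIs of other 2C markers. The ES-like cells of the 2 conditions came from different clusters: for the control these were 0 and 1 (all but 1 cell), for CX-5461 they were 6, 7 and 8. Each of these clusters had between 0.826% and 3.32% positive cells. The shallow unnamed control cells (1176, median 2399.5 UMIs) had 6 positives, each with 1 UMI.

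Other 2C transcripts followed the Zscan4 count of the cell. Summed over 15 2C markers (the 16 without Sp110), the control cells had 0.777 CPM at 0 Zscan4 UMIs, 9.20 at 1, 761 at 2 to 9 and 5182 (4704 to 5696) at 10 or more. In the CX-5461 library the values were 4.66, 37.3, 183 and 4124 (3965 to 4287). Single cells weighed heavily in the control, where 1 cell held 50%, 48% and 55.8% of the marker UMIs at 1, 2 to 9 and 10 or more. At 2 to 9 and at 10 or more, the median over cells was 870 and 4548 CPM in the control. In the CX-5461 library it was 0 and 2230 CPM. The share of cells with at least 1 such UMI rose from 0.805% (0.544 to 1.15) to 10.3% (2.19 to 27.4) at 1 Zscan4 UMI in the control and to 8 of 8 cells at 10 or more. In the CX-5461 library it was 4.33% (3.76 to 4.97) at 0, 16.7% (9.42 to 26.4) at 1, 49.3% (36.8 to 61.8) at 2 to 9 and 95.6% (84.9 to 99.5) at 10 or more. The median total in these CX-5461 groups was 14231, 14025, 13972 and 12447 UMIs, so that the cells richest in 2C markers were the shallowest.

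Seen from the other side, cells rich in 2C markers nearly always had Zscan4. Of the cells with at least 5 UMIs of the 15 markers, 10 of 11 in the control and 51 of 54 in the CX-5461 library (94.4%, 84.6 to 98.8) were Zscan4-positive. These were 23.8% and 26.0% of all positive cells. Duxf3, the Dux gene in the annotation, was detected in 3 control and 30 CX-5461 cells, and 2 and 20 of these (66.7% in each) had Zscan4. It was found in 2 of 8 control and 16 of 45 CX-5461 cells with at least 10 Zscan4 UMIs (35.6%, 21.9 to 51.2), against 10 of 4501 CX-5461 cells without Zscan4 (0.222%, 0.107 to 0.408).

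**Figure D5:**
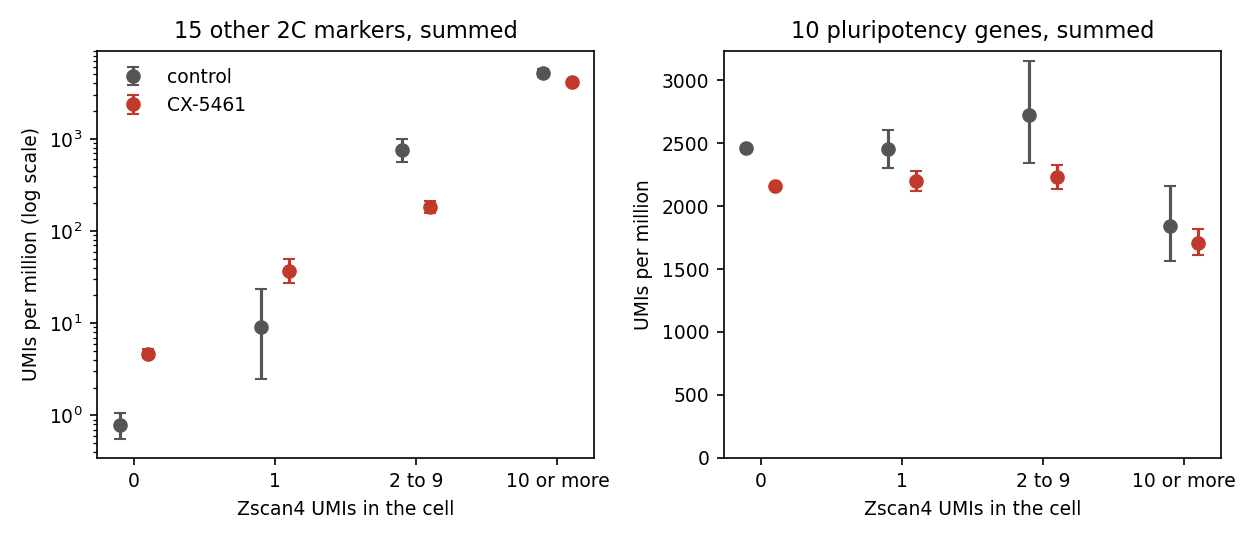
Summed level of 15 other 2C markers (left, log axis) and of 10 pluripotency genes (right, axis from 0) in CPM, by the number of Zscan4 UMIs in the cell, for the control (grey) and CX-5461 (red) libraries with exact 95% intervals for counting error. The 2C markers climb from 0.777 to 5182 and from 4.66 to 4124, and the pluripotency genes are lowest in cells with 10 or more Zscan4 UMIs. In the control, 1 cell holds 55.8% of the 2C marker UMIs at 10 or more.

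Positive and negative cells of the same library were then compared gene by gene over lists of genes. A listed gene was counted as higher where its level was at least 2-fold higher in positive cells with the counting interval above 1. Of the 46 other 2C-stage transcripts listed, 45 were found in the tables and 29 had at least 20 UMIs. In cells with at least 1 Zscan4 UMI, 23 of the 29 were higher in the control and 24 in the CX-5461 library, and none was lower. Over all genes tested, 2.61% and 2.69% met the same rule. In cells with at least 10 Zscan4 UMIs it was 25 of 29 in each library, beside 3.03% and 4.04% of all genes. Without the positive cell that had the most UMIs of the gene, 21 of the 23 and 24 of the 24 calls at 1 UMI held, and Zfp352 and Tcstv1 in the control did not. At 10 UMIs, 21 of the 25 control calls and 25 of the 25 CX-5461 calls held, with Arg2 and Calcoco2 lost in the control beside the same pair. At both bounds the held control calls of Duxf3, Tcstv3 and Gm4340 rested on 1 remaining UMI in positive cells, and say little. The median log2 ratio of the list was 9.37 and 7.65, beside -0.19 and -0.03 for all genes. Cells of 1 library are not replicates, and the list was known to follow Zscan4, so these are descriptions.

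Most UMIs of the 2C-stage genes with the highest ratios lay in positive cells of the CX-5461 library, although the cells that held them were in part Zscan4-negative. Of the 84 cells with Gm21761, 48.8% were positive, and so were 55% of 60 with Gm20767, 62.5% of 16 with Tcstv3 and 88% of 25 with Gm12794. AF067061 had 236 UMIs in positive cells and 0 in the 4501 negative cells, which puts it at least 1841-fold higher, with 3 counts over all negative cells taken as the floor. Gm4340 had 40 against 0 (at least 312-fold) and Zfp352, a zinc finger gene of the 2-cell embryo, 28 against 0 (at least 218-fold). Of the Zfp352 UMIs, 75% came from 1 cell, and 62.5% of those of Gm4340. Gm12794, with 146 against 3 UMIs, had a ratio of 1139 (382 to 5586). Tcstv3 had 222 against 6, a ratio of 866 (391 to 2384) that was 501 without its top cell. Gm13078 had 28 against 1 (655, 108 to 26789), Gm20767 876 against 32 (ratio 641, 450 to 942) and Gm21761 1389 against 62 (524, 406 to 687). In the control library the same genes had between 0 (Gm13078) and 95 UMIs (Gm21761) in positive cells and at most 3 in negative cells. Several of these genes belong to families of near-identical copies as well, and their counts carry the same uncertainty.

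Among 20 reported regulators of Zscan4 or of the 2C state, 1 was higher in positive control cells and none in positive CX-5461 cells. The list's median log2 ratio was -0.06 and 0.02. The gene that was higher is Dppa2, which encodes a chromatin factor known to activate Dux and with it the 2C genes. It stood at 189 CPM (155 to 227) in positive against 82.9 in negative control cells, and at 145 against 83.0 CPM in CX-5461 cells, a ratio of 1.75 (1.58 to 1.94). A single control cell held 32 of the 110 Dppa2 UMIs, and without it the control ratio of 2.27 was 1.63 (1.29 to 2.05), under the 2-fold bound. In cells with at least 10 Zscan4 UMIs the Dppa2 ratio was 8.28 (6.26 to 10.8) in the control, or 4.04 (2.61 to 5.97) without that cell, and 2.99 (2.53 to 3.51) in the CX-5461 library. At the same bound 2 other regulators passed the rule. Rif1 was higher in the control, 2.07 (1.10 to 3.55), a call lost without 1 cell (1.42, 0.612 to 2.80), and Ehmt2, which encodes a histone H3K9 methyltransferase, was lower in the CX-5461 library, with 2 UMIs and a ratio of 0.161 (0.0194 to 0.581). The Ehmt2 ratio in the control was 0.640 (0.0162 to 3.57) on 1 UMI. In all positive cells, Rif1, a telomere-associated protein that represses Zscan4, had a ratio of 1.24 (1.12 to 1.38) in the CX-5461 library. The demethylase gene Kdm1a had 1.20 (1.00 to 1.43), and the histone chaperone gene Chaf1a 1.16 (0.948 to 1.41). Lin28a was lower in positive control cells, with 4 UMIs against 944, a ratio of 0.355 (0.0965 to 0.912), whereas its CX-5461 ratio was 0.921 (0.294 to 2.21).

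No telomere gene passed the rule in either direction. The list's median log2 ratio was 0.16 in the control and -0.03 in the CX-5461 library. The helicase gene Blm had a CX-5461 ratio of 1.24 (0.951 to 1.59), and the shelterin genes Tinf2, Terf1 and Acd had 1.14 (0.830 to 1.53), 1.11 (0.926 to 1.32) and 1.02 (0.834 to 1.24). These were the 4 highest ratios of the list. Atrx was under 1 at 0.837 (0.731 to 0.954), and the lowest was Pot1a at 0.602 (0.335 to 1.00). At 10 Zscan4 UMIs the summed list stood at 241 against 306 CPM in the CX-5461 library, a ratio of 0.790 (0.668 to 0.928). The median log2 ratio of all genes there was -0.32, lowered by genes without a UMI in these cells, and is no like-for-like baseline. Of 8 meiotic recombination genes with at least 20 UMIs, 1 was higher in each library, on few counts. Mael, a germ cell gene of the piRNA pathway, had 8 UMIs in positive CX-5461 cells and a ratio of 4.07 (1.66 to 8.71), and Sycp1, of the synaptonemal complex, had 4 UMIs in positive control cells, a call lost without 1 of those cells (ratio 4.26, 0.854 to 13.0). Dmc1, the meiotic recombinase gene, had 6 UMIs and a ratio of 1.90 (0.675 to 4.33), Tex101 1.89 (1.24 to 2.79) and Sycp3 1.71 (1.30 to 2.21). The median log2 ratio of this list was 0.06 and 0.55.

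The 8 genes of DNA methylation had a median log2 ratio of -0.19 in the control and -0.14 in the CX-5461 library, and none passed the rule. The methyltransferase gene Dnmt3a had a CX-5461 ratio of 1.19 (0.755 to 1.79), Tet3 1.11 (0.568 to 1.98), Dnmt3l 1.06 (0.742 to 1.46) and Uhrf1 0.924 (0.798 to 1.06). These were the 4 highest ratios of the list. The lowest were Tet1 at 0.812 (0.648 to 1.01), Dnmt3b at 0.816 (0.582 to 1.11) and Dnmt1 at 0.869 (0.738 to 1.02). Summed over the list, cells with at least 10 Zscan4 UMIs had 84.4 CPM against 305 in negative control cells, a ratio of 0.277 (0.111 to 0.570) on 7 UMIs. In the CX-5461 library they had 186 against 236 CPM, a ratio of 0.791 (0.652 to 0.95). On the log2 scale the list's median there was -0.37, beside -0.32 for all genes, a median lowered by genes without a UMI in these cells. In the control no such median of all genes can be given, since most genes had 0 UMIs in these 8 cells.

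Pluripotency transcripts stayed present in Zscan4-positive cells. The 10 listed genes had a median log2 ratio of -0.12 in the control and 0.01 in the CX-5461 library, and none passed the rule at 1 UMI. Nanog had a CX-5461 ratio of 1.17 (1.09 to 1.27), Klf2 1.10 (0.930 to 1.29), Zfp42 1.05 (0.994 to 1.11) and Esrrb 1.01 (0.838 to 1.21). Tfcp2l1, Utf1 and Pou5f1 (Oct4), chosen after their values were seen, were under 1, with CX-5461 ratios of 0.759 (0.661 to 0.869), 0.807 (0.693 to 0.935) and 0.901 (0.859 to 0.945). In cells with at least 10 Zscan4 UMIs the summed list was lower, 1844 (1563 to 2160) against 2462 CPM in the control and 1710 (1608 to 1816) against 2161 CPM in the CX-5461 library. The CX-5461 median log2 ratio of the list was -0.39, beside -0.32 for all genes in that comparison. Genes without a UMI in these cells count in the median of all genes and lower it, so it is no like-for-like baseline for the list. Utf1 passed the rule there as lower in both libraries, with 0 against 5164 UMIs in the control and a ratio of 0.421 (0.260 to 0.643) after CX-5461. Pou5f1 stood at 578 (427 to 767) against 842 CPM in the control and at 598 (538 to 662) against 703 CPM in the CX-5461 library. The share of transcripts from ribosomal protein genes had a median of 27.7% against 27.6% in the control and of 24.4% against 24.0% in the CX-5461 library.

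The genes whose pattern was most like that of the family were other copies and other 2C genes. Over the 4697 CX-5461 cells, the Pearson correlation of log-normalized levels was highest for Zscan4-ps2 (0.93), followed by Gm8300 (0.82), Zscan4-ps1, BB287469, Gm8332, Gm5662 and Gm5039 (each 0.79), Gm2016 and Gm21761 (0.76 each) and Gm4027 (0.75). Over the 3767 control cells, the correlations of the same 10 genes ran from 0.79 (Gm21761) to 0.91 (Zscan4-ps2). All points of a correlation share a library, most cells are at 0 for both genes, and the value rests on few cells, so that it is a description. Zscan4-ps2 was found in 111 CX-5461 cells, of which 93.7% were positive for a member, and Zscan4-ps1 in 68, of which 94.1% were. Gm8300 was found in 192 CX-5461 cells, of which 44.3% had Zscan4, and in 43.4% of the Zscan4-positive cells.

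Between the copies the annotation places 44 other genes, of which 11 had a UMI and 3 had at least 20. The pseudogene Gm7789, between Zscan4b and Zscan4c, was widespread: 1010 control cells held 1449 of its UMIs and 1033 CX-5461 cells held 1363, of which 3 and 16 UMIs fell in cells with at least 10 Zscan4 UMIs. Gm45598, between Zscan4e and Zscan4f, had 24 and 138 UMIs, with 0 and 3 in such cells. Gm45551, a pseudogene between Zscan4f and Zscan4-ps2, had 43 UMIs among 30 control cells and 113 among 81 CX-5461 cells, and 53 of the 113 fell in the 45 CX-5461 cells with at least 10 Zscan4 UMIs, against 2 of the 43 in the 8 control cells. The 3 annotated genes on either side of the cluster had no UMI in either library.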

How the data were processed

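Each condition had 1 table of UMI counts deposited by the authors without normalization, genes by barcodes, with totals of counts ambiguous between genes; per the labels the libraries were made with 10x 3′ reagents. The submitters' processing notes name Seurat 2.3.4 and mm10. Barcodes were kept from 500 UMIs upward and up to a mitochondrial share of 0.2. Members and gene lists were chosen with earlier results of these data known. Levels are CPM over kept UMIs, and the exact 95% intervals are Poisson (sums), Clopper-Pearson (shares) and binomial given the total (ratios). Cells were clustered with scanpy 1.11.5 (2000 variable genes without Zscan4 copies, 16 components, 15 neighbours, Leiden resolution 0.5) and named X-like from at least 3 fixed markers among 50 leading genes; ES-like needed 0.5 of the mean ES marker level, and shallow clusters stayed unnamed. No doublet caller was run. Cells were thinned once at random to 3100 UMIs. TMM factors (edgeR 4.0.16) and median-of-ratios factors (DESeq2 1.42.0) served as scaling alternatives only. Named list genes are those with the highest ratio of positive over negative CX-5461 cells, at most 8 of the 2C-stage list and 4 of each other list, among genes with at least 20 UMIs; Duxf3, Dppa2 at 10 UMIs, Rif1 at 10 UMIs, Ehmt2, Lin28a, Sycp1, Tcstv1, Arg2, Calcoco2, Tfcp2l1, Utf1, Pou5f1 and the bound of 10 UMIs were chosen after their values were seen. Atrx, Pot1a, Tet1, Dnmt3b and Dnmt1 were also chosen after their values were seen. The 10 genes most like the family had a UMI in at least 10 CX-5461 cells. Barcodes are running numbers, so shared barcodes could not be counted; 0 expression profiles were identical between the libraries. Of 54146 identifiers, 52480 matched GENCODE M21 with their version. The interval, ratio and thinning steps were tested on simulated data.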

Additional observations from a re-analysis of the deposited data

How the results depend on the processing

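The log2 ratio of the family, 1.84 as reported, was 2.29 with at most 0.1 mitochondrial, 1.5 with TMM and 1.47 with median-of-ratios. It was 0.90 as a mean over cells, 2.11 without the top cell of each library and 0.98 after thinning. Without the 3 or 10 top cells, settings added after seeing the data, it was 3.15 and 4.30. Leaving out top cells takes a larger share of the family UMIs from the control, so that the ratio rises by construction. The direction of the family ratio was kept under each setting, and so was that of every copy. The log2 ratios of the copies ranged from 0.75 to 2.69 over 7 alternatives. After thinning, Zscan4a, d, e and ps3 fell under 2-fold (log2 0.76, 0.76, 0.75 and 0.85). Thinning hardly touched the top control cell (3105 UMIs), so that the thinned ratios rest largely on it. The share of positive cells in the control and CX-5461 libraries was 0.345% and 2.38% at 2 UMIs, 0.319% and 1.53% at 5 UMIs, and 0.442% and 2.29% after thinning. The median UMIs per positive control cell went from 1 to 2 after thinning, and the share of control cells with 2 or more copies from 28.6% to 46.2%. At 2 family UMIs, the share with 2 or more copies was 92.3% and 88.4%, and the share in the 2C-like cluster 92.3% and 58.9%. The latter was 24.5% for CX-5461 with the listed 2C genes left out of the variable genes. The share of the top control cell was 34.8% with at most 0.1 mitochondrial, and 60.9% of positive CX-5461 cells had 2 or more copies once Zscan4-ps1 and Zscan4-ps2 were added. Leaving out the positive cell with the most UMIs of a gene, also added later, ended the calls of Dppa2, Sycp1 (ratios of 1.63 and 4.26), Zfp352 and Tcstv1 in control cells positive at 1 UMI. At 10 UMIs it ended those of Zfp352, Tcstv1, Arg2, Calcoco2 and Rif1 in the control and of Mael in the CX-5461 library. The cause of these shifts was not tested, beyond what the smaller sets of cells or counts imply. Another 39 values moved within their counting interval or, for gene counts, by less than 1.5 times. Shared counts are given only as totals per gene, so they were added to summed levels but not to values per cell. No paired analysis was possible because the tables carry no sample of origin, and for the same reason no replicate could be left out. Zscan4b and Zscan4e, with 6 and 13 control UMIs, are limited most by depth.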
